A study of Mus musculus with 899 samples.

Results

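The microRNA (miRNA) miR-451a, miR-144 and miR-486 are the small RNA best known from red blood cells, and their levels were followed in the plasma of irradiated and sham-treated mice. The rows named mmu-miR-451a, mmu-miR-144-3p, mmu-miR-144-5p, mmu-miR-486a-5p and mmu-miR-486b-5p were taken by name from a table of 1915 mature miRNA, and all 5 were found in every one of the 899 plasma samples. In these samples, miR-486-5p and miR-451a did not pass the test for an irradiation effect at any time point in either strain. Both arms of miR-144 did at day 5 in C3H mice and the 5p arm did at day 5 in C57Bl/6 mice. These calls were lost in another fit that paired the samples of each mouse, which changed both the method and the pairing. Of 18 alternative fits, 12 called miR-144-5p at day 5 in C3H and 15 in C57Bl/6 mice, and 8 called miR-144-3p in C3H mice. By contrast, all 5 rows were called between strains before irradiation, as were 65.8% of all miRNA tested, and over time in sham mice, as were 46% in C3H and 62.9% in C57Bl/6 mice.

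A miRNA is a short RNA cut from a hairpin precursor that lowers the output of messenger RNA matching its seed, the bases near its 5′ end. Mir144 and Mir451a are neighbors that are transcribed together under the control of the erythroid transcription factor GATA1 as red cells mature. The hairpin of miR-451a is unusual because it is cut by Argonaute 2 and not by Dicer, and miR-451a is the classic red cell miRNA. The hairpin of miR-486 lies within Ank1, the gene for the red cell membrane skeleton protein ankyrin-1, and miR-486 is also made in muscle. Since red cells are rich in these miRNA, their level in plasma is often read as a sign of red cell rupture during or after bleeding.

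The mature sequences are shown because the 2 arms of miR-144 behaved differently from miR-451a although the hairpins are neighbors. They are from RefSeq on GRCm38.p6, with the seed (bases 2 to 8) in capitals.
mmu-miR-451a: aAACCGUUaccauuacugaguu
mmu-miR-144-3p: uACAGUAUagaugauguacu
mmu-miR-144-5p: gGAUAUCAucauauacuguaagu
These lie on the plus strand of chromosome 11, miR-451a at chr11:78073186-78073207, miR-144-3p at chr11:78073047-78073066 and miR-144-5p at chr11:78073010-78073032. The hairpins follow, with the mature parts in capitals.
Mir144: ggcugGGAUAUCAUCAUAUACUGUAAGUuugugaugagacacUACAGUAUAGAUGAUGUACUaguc
Mir451a: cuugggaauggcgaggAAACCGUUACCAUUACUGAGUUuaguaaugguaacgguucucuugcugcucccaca
Between the 2 hairpins lie 99 bases, and neither lies inside another annotated gene apart from Mir451b, which is annotated on the minus strand of the same interval as Mir451a. No read of miR-451b was counted in any of the 899 samples. Each of the 3 seeds was shared by 0 other miRNA among the 1679 mature entries of the RefSeq table. Mir486 lies at chr8:23142555-23142682 on the plus strand of GRCm38, within Ank1 (chr8:22974844-23150497, the same strand) and the antisense gene Gm15816, and overlaps no annotated exon. miR-486a-5p and miR-486b-5p are named only.

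The mice were of the strains C3Hf/Sed/Kam (C3H) and C57Bl/6, of both sexes, and carried no transgene. They received a single whole-thorax irradiation or a sham treatment. By the mouse numbers in the labels 64 C3H mice were irradiated and 32 left as sham, with 68 and 32 among C57Bl/6. The study itself reports 64 irradiated C57Bl/6 mice, and the labels do not explain the difference. Plasma was taken before irradiation (PT), at day 2 (D2) or day 5 (D5), and at months 1 to 4 (M1 to M4) in C3H or 1 to 6 (M1 to M6) in C57Bl/6 mice. The labels give no age and no dose. The mouse numbers carry a further code, G2 or G4 in C3H and G1 or G3 in C57Bl/6 mice, which the labels do not explain and which is called the label group here. At PT each label group held 24 females and 24 males. Only G1 and G2 were sampled after M1, and no mouse was bled at both D2 and D5. Of the irradiated C57Bl/6 mice, 4 have no PT sample. Blood was drawn from live mice behind the eye and at the terminal bleed from the heart, and the labels do not say which route a sample had. According to the study's methods plasma with hemolysis above a limit was not sequenced, so the members are described here in plasma already screened for red cell rupture.

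Total miRNA reads per sample ranged from 206490 to 11814515 (median 1475030), and 23 libraries had under 500000. Counts were lowest for miR-144-5p, with 6 reads in the poorest sample and a median of 404, and for miR-144-3p, with 13 and 428. For miR-451a the lowest and median counts were 257 and 8376, and for miR-486a-5p 1127 and 37603. Abundance is given below as log2 CPM (CPM stands for counts scaled to the same library size after TMM normalization). A comparison was called when the quasi-likelihood test of edgeR gave p under 0.05 after the Benjamini-Hochberg adjustment, made over all miRNA tested. Adjusted p and SE (standard error) below are from that test unless another is named. Since plasma is a bulk sample, more red cells ruptured, more of a miRNA per red cell and less of the other miRNA cannot be told apart in these values.

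The rows of miR-486a-5p and miR-486b-5p held the same signal. Of their reads over all samples 50.005% were in the miR-486a-5p row, and in single samples the share ranged from 48.7% to 50.9%. The miR-486a-5p row was the higher one in 466 samples and the miR-486b-5p row in 433. The chi-square of the deviations from an even split was 932 on 899 degrees of freedom, which is about what counting error alone gives (chi-square test, p = 0.219). The 2 rows were therefore read as 1 measurement, so that the 5 rows hold 4 distinct ones. The 3p rows differed from each other, with 65.3% of their reads in miR-486a-3p, and for each 3p read of miR-486 there were 1274 reads of the 5p arm.

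Together the 5 rows took a median of 6.16% of all miRNA reads of a sample, from 0.618% in a sham C57Bl/6 mouse at D5 to 14.7% in an irradiated C3H mouse at D2. The share was 10% or more in 71 samples and under 2% in 6. The miR-486-5p rows held most of it, with a mean of 5.56% ± 1.94 (SD, n = 899), followed by miR-451a with 0.753% ± 0.536 (lowest 0.0606%, highest 3.43%). The arms of miR-144 were scarce, at 0.0386% ± 0.0327 for the 3p and 0.0359% ± 0.0298 for the 5p arm. By mean count miR-486a-5p and miR-486b-5p ranked 4 and 5 of the 1915 rows, miR-451a 22, miR-144-3p 93 and miR-144-5p 98. The most abundant row was miR-16-5p, another miRNA that red cells hold in quantity, with a mean share of 46.0%.

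**Figure D1:**
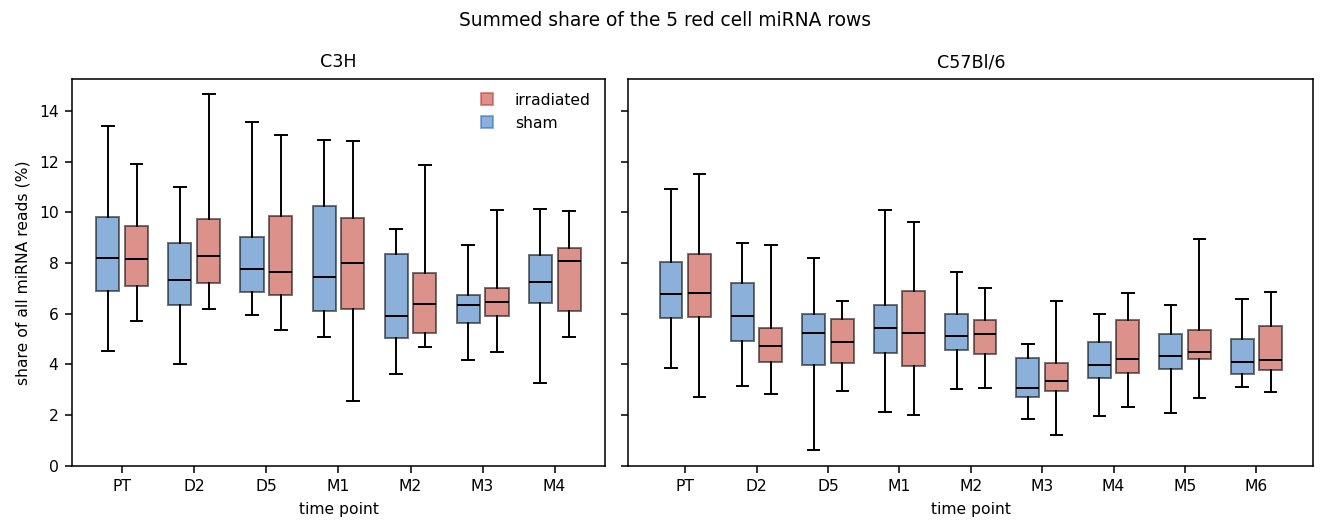
Summed share of miR-451a, both arms of miR-144 and both miR-486-5p rows among all miRNA reads, in percent, by strain and time point for sham (blue) and irradiated (red) mice; boxes give the quartiles, lines the median and whiskers the lowest and highest sample. The medians of the C3H groups lie between 5.89% and 8.29% and those of the C57Bl/6 groups between 3.07% and 6.83%, with wide overlap between sham and irradiated mice.

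In C57Bl/6 mice the median share was lower in every later group than at PT. Before irradiation the median was 8.21% in sham and 8.17% in irradiated C3H mice, and 6.78% and 6.83% in C57Bl/6 mice. The lowest medians of all groups were those of C57Bl/6 mice at M3, at 3.07% in sham mice (from 1.86% to 4.81%) and 3.35% in irradiated mice (from 1.23% to 6.50%). In C3H mice the highest median was 8.29% in irradiated mice at D2. Sham and irradiated groups overlapped at every time point of both strains.

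Before irradiation, all 5 rows were lower in C57Bl/6 than in C3H mice, where 65.8% of all 319 miRNA tested were called. The widest gap was that of miR-144-3p. It ranged from 7.19 to 10.93 log2 CPM (median 9.27) in 96 C3H mice and from 6.44 to 9.63 (median 7.77) in 96 C57Bl/6 mice. The log2 difference was -1.34 (SE 0.09, edgeR adjusted p = 1.69e-33). For miR-144-5p the strains overlapped more, with medians of 8.76 and 8.24 log2 CPM and a log2 difference of -0.50 (SE 0.10, edgeR adjusted p = 1.02e-06). The ratio of the arms also differed, with the 3p arm higher than the 5p arm in C3H mice by 0.41 ± 0.59 (SD, n = 96) on the log2 scale and lower in C57Bl/6 mice, at -0.42 ± 0.46 (SD, n = 96).

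For miR-451a the PT samples ranged from 11.01 to 15.22 log2 CPM (median 13.37) in C3H and from 11.14 to 14.35 (median 12.75) in C57Bl/6 mice, a log2 difference of -0.41 (SE 0.09, edgeR adjusted p = 1.53e-05). For miR-486a-5p the medians were 15.22 and 14.95 and the log2 difference was -0.35 (SE 0.07, edgeR adjusted p = 4.61e-06). The ranges overlapped for both. The strains are made up of different label groups, so strain and label group cannot be told apart here. For miR-451a, miR-144-5p and miR-486a-5p the gap between the C3H label groups, given next, had a larger estimate than the gap between strains.

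In C3H mice at PT, all 5 rows differed between label groups G4 and G2, as did 70.2% of all miRNA tested, and they differed in opposite directions. The miR-451a level was lower in G4, with 11.01 to 13.96 log2 CPM (median 12.92) against 12.35 to 15.22 (median 13.85) in G2. Its log2 difference was -1.26 (SE 0.13, edgeR adjusted p = 1.35e-18). The miR-486a-5p level was lower too, by a log2 difference of -0.71 (SE 0.10, edgeR adjusted p = 7.85e-11), a value that shrank to -0.24 when reads were taken relative to all reads of the sample without TMM factors. Both arms of miR-144 were higher in G4. The log2 difference was 0.81 (SE 0.12, edgeR adjusted p = 1.35e-09) for miR-144-3p and 0.98 (SE 0.14, edgeR adjusted p = 3.30e-11) for miR-144-5p.

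Among C57Bl/6 mice at PT, 4 of the 5 rows differed between G3 and G1, where 48.3% of all miRNA were called. Both arms of miR-144 were again higher and miR-486a-5p lower in the second label group, with log2 differences (G3 minus G1) of 0.59 (SE 0.12) for miR-144-3p, 0.42 (SE 0.13) for miR-144-5p and -0.78 (SE 0.10) for miR-486a-5p. The exception was miR-451a, with 11.14 to 14.35 log2 CPM (median 12.66) in G3 and 11.18 to 14.09 (median 12.91) in G1. Its log2 difference was -0.20 (95% interval from -0.45 to 0.04, adjusted p = 0.170 by edgeR), and 0.07 relative to all reads of the sample without TMM factors.

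With TMM factors, the differences called between females and males at PT were those of miR-451a and miR-144-5p. They made up 3 of 10 member values, and 7 of 10 were called relative to all reads of the sample without TMM factors. According to the study's methods the females were of an older age range than the males, so sex and age cannot be told apart here. In C3H mice 2 of the 5 rows were called, against 30.1% of all miRNA. The miR-451a level was higher in females, at 13.70 ± 0.66 (SD, n = 48) than in males, at 12.96 ± 0.95 (SD, n = 48) log2 CPM, by 0.71 on the log2 scale (SE 0.12, edgeR adjusted p = 2.18e-06). The miR-144-5p level was lower in females, by a log2 difference of -0.34 (SE 0.13, edgeR adjusted p = 0.0392), a call lost relative to all reads of the sample (adjusted p = 0.0593). In C57Bl/6 mice only the miR-451a row was called, against 27.9% of all miRNA, and there females were lower, at 12.63 ± 0.66 (SD, n = 48) against 13.12 ± 0.70 (SD, n = 48) log2 CPM. The log2 difference was -0.44 (SE 0.12, edgeR adjusted p = 0.00335). The difference between the strains in this sex difference was itself called for miR-451a alone among the 5 rows, against 32.9% of all miRNA, at -1.15 (SE 0.18, edgeR adjusted p = 2.01e-08). Within label groups the means of females and males kept the order of their strain, with G2 females at 14.12 ± 0.60 and males at 13.70 ± 0.66, G4 females at 13.29 ± 0.43 and males at 12.22 ± 0.52, G1 females at 12.80 ± 0.75 and males at 13.12 ± 0.55, and G3 females at 12.46 ± 0.52 and males at 13.12 ± 0.83 log2 CPM (SD, n = 24 each).

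Across mice before irradiation the 2 arms of miR-144 moved together. Pearson's r between miR-144-3p and miR-144-5p was 0.777 in C3H and 0.786 in C57Bl/6 mice (permutation p = 1e-05 in both, the smallest that 100000 permutations can give, adjusted p = 2.22e-05 over 20 relations, two-sided, n = 96). Spearman's rho was 0.762 and 0.774 (permutation p = 1e-05 in both, adjusted p = 2.86e-05). Without the 2 mice farthest from the median of miR-144-3p, r was 0.762 and 0.766. The relation held within each label group, with r of 0.471 in G2, 0.841 in G4, 0.593 in G1 and 0.859 in G3.

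The relation between miR-451a and miR-486a-5p was looser. Pearson's r was 0.531 in C3H (permutation p = 1e-05, adjusted p = 2.22e-05) and 0.422 in C57Bl/6 mice (permutation p = 3e-05, adjusted p = 6e-05). Spearman's rho was 0.529 (permutation p = 1e-05) and 0.404 (permutation p = 4e-05), and without the 2 farthest mice r was 0.483 and 0.374. Within label groups r was 0.249 in G2, which did not pass the test (permutation p = 0.0877, adjusted p = 0.146, n = 48), 0.437 in G4, 0.533 in G1 and 0.378 in G3.

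Although their hairpins are neighbors, the relation between miR-451a and miR-144 varied with the set of mice in which it was taken. In C3H mice r between miR-451a and miR-144-3p was -0.302 over both label groups (permutation p = 0.00278, adjusted p = 0.00428, n = 96), with Spearman's rho at -0.327 (permutation p = 0.00117), and it was -0.309 without the 2 farthest mice. The sign was not the same within label groups. In G2 r was 0.557 (permutation p = 2e-05, adjusted p = 8e-05, n = 48) and in G4 it was -0.321 (permutation p = 0.0256, adjusted p = 0.0445, n = 48). Within G4, r was 0.0390 among the 24 females and 0.409 among the 24 males, where Spearman's rho was -0.152 and 0.383. Among females and males of the other label groups r was 0.306 and 0.636 in G2, 0.464 and 0.613 in G1, and 0.337 and 0.546 in G3. Without the 2 farthest mice it was -0.0435 among G3 females. Values over a whole strain or label group also hold the shifts in mean between these sets. In C57Bl/6 mice r was 0.413 (permutation p = 1e-05, adjusted p = 2.22e-05, n = 96) over both label groups, with Spearman's rho at 0.394 (permutation p = 0.00011), 0.366 without the 2 farthest mice, 0.553 in G1 and 0.486 in G3. For miR-451a and miR-144-5p, r was -0.563 in C3H (permutation p = 1e-05, adjusted p = 2.22e-05) and 0.0830 in C57Bl/6 mice (permutation p = 0.421, adjusted p = 0.468). Within the C3H label groups it was -0.0835 in G2 (permutation p = 0.572, adjusted p = 0.654, n = 48) and -0.471 in G4 (permutation p = 0.00075, adjusted p = 0.002, n = 48), and within G4 it was -0.136 among females and 0.306 among males.

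**Figure D2:**
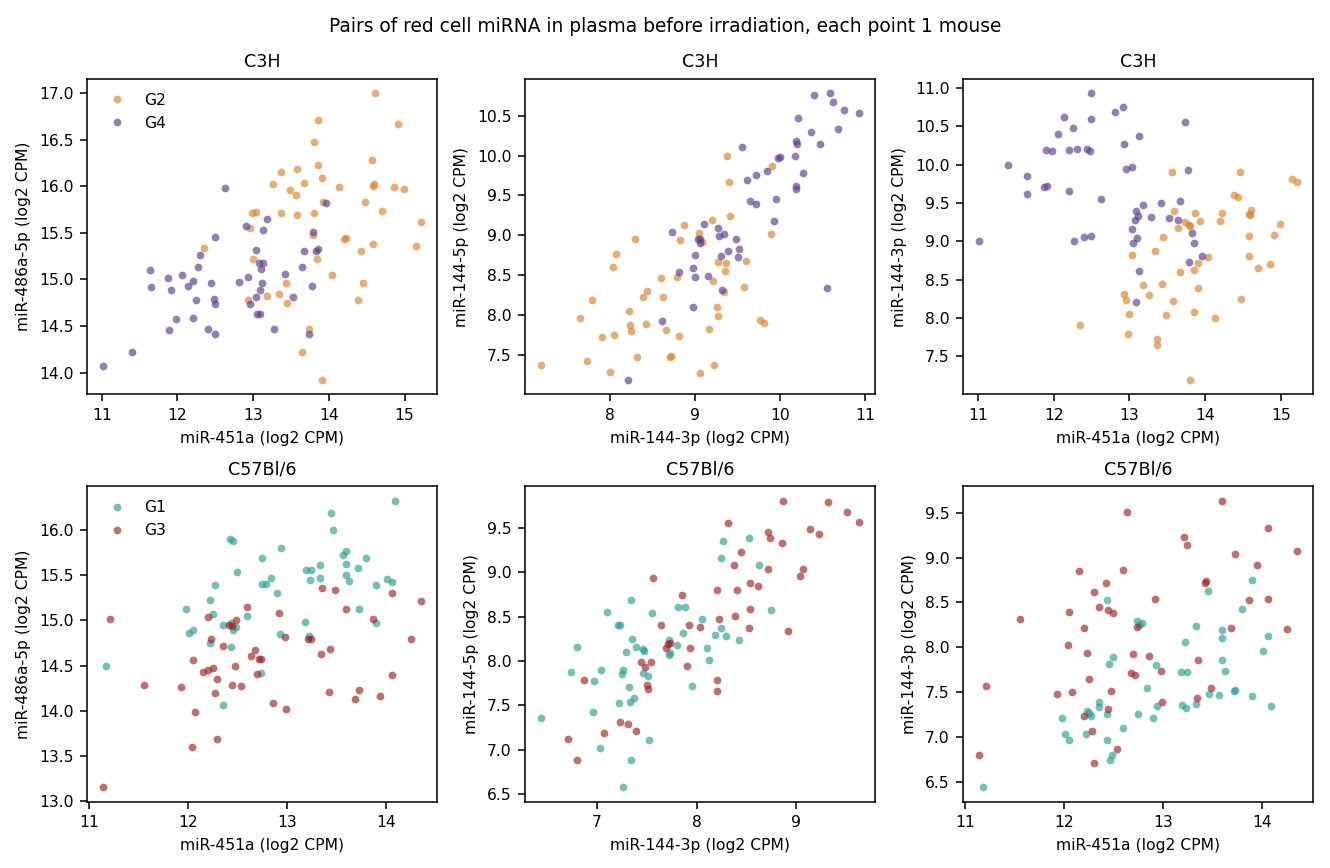
Abundance in log2 CPM of miR-451a against miR-486a-5p (left), miR-144-3p against miR-144-5p (middle) and miR-451a against miR-144-3p (right) in plasma before irradiation, for C3H (top) and C57Bl/6 mice (bottom), each point 1 mouse colored by label group. The arms of miR-144 form a single band (r of 0.777 and 0.786), while the C3H label groups G2 and G4 are shifted against each other, with some overlap, in the plots with miR-451a.

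Over all 899 samples, after group means were removed, the same order was seen as a description. The residuals of miR-144-3p and miR-144-5p correlated at 0.775, those of miR-451a and miR-486a-5p at 0.566, and those of miR-451a with miR-144-3p and miR-144-5p at 0.227 and 0.0538. Samples of 1 mouse and libraries of 1 label group are shared among these points. Among the 478 miRNA tested that are not members, the closest to miR-451a were miR-106b-5p (0.796), miR-92a-3p (0.666), miR-222-3p (0.611), miR-17-5p (0.573) and miR-18a-5p (0.536). The closest to miR-486a-5p were miR-92a-3p (0.869), miR-16-5p (0.805), miR-25-3p (0.733), miR-486a-3p (0.711) and miR-486b-3p (0.680). Thus miR-92a-3p stood near both.

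The spread of miR-451a and miR-144 within groups was among the wider ones of the abundant miRNA, and that of miR-486a-5p was near the middle. The SD within groups was 0.81 log2 CPM for miR-451a, 0.79 for miR-144-3p, 0.88 for miR-144-5p and 0.58 for miR-486a-5p, against a median of 0.56 over the 124 miRNA with a mean of at least 100 CPM. They ranked 17, 18, 11 and 51 from the highest. Part of this spread followed label group and sex. When group, label group and sex were combined into 96 sets with their own means, the SD of miR-451a was 0.65, so that 64.6% of the variance was left, while over all miRNA tested the median SD went from 0.85 to 0.79. What sets label group and sex apart was not tested.

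All members changed over time in sham mice, which received no radiation. In the F test of edgeR over all time points after PT, all 5 rows were called in C3H mice, against 46% of all miRNA, and all 5 in C57Bl/6 mice, against 62.9%. In sham C3H mice miR-451a ranged from 11.01 to 15.22 log2 CPM at PT (median 13.47, n = 32) and from 11.32 to 13.49 at M3 (median 12.19, n = 16). The fitted log2 difference to PT was -1.38 (SE 0.26) at M3, -0.65 (SE 0.25) at M2 and -0.71 (SE 0.25) at M4, while at D2 it was -0.32 (SE 0.25). With a separate level for each mouse, taken from all its samples (the mouse as a fixed replicate block in limma-voom), it was -1.70 (SE 0.23) at M3. Among the G2 mice alone, which was tried once the data had been seen, it was -1.94 (SE 0.27). Their F test adjusted p was 5.95e-05 by edgeR, 3.11e-12 with the fixed block and 1.24e-11 for the mice of G2 alone.

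The lower abundance of miR-451a at later times was also seen in sham C57Bl/6 mice. From a median of 12.44 log2 CPM at PT (from 11.93 to 14.25, n = 32) it went to 11.44 at M3 (from 10.73 to 12.76, n = 16). The log2 difference to PT was -0.90 (SE 0.20) at M1, -1.07 (SE 0.26) at M3 and -0.92 (SE 0.26) at M6. For miR-486a-5p the medians were 14.92 at PT and 13.57 at M3, and the log2 difference was -1.24 (SE 0.19) at M3, -0.78 (SE 0.19) at M4 and -0.75 (SE 0.19) at M5. The paired value of miR-486a-5p at M3, with the mouse as a fixed block, was -1.64 (SE 0.17).

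Low values in the first days were those of both arms of miR-144, with smaller fitted differences for miR-144-3p in C57Bl/6 mice, and of miR-486a-5p at some times. In sham C3H mice miR-144-3p had a median of 9.11 log2 CPM at PT and 7.78 at D2 (from 7.10 to 9.83, n = 16), a log2 difference of -1.14 (SE 0.26). Of the 16 sham C3H mice bled at D5, 16 had less miR-144-3p than in their own PT sample, with a mean change of -1.28 ± 0.60 (SD). At M2 the median was 9.71 (log2 difference 0.32, SE 0.24). The course of miR-144-5p in sham C3H mice depended on the label groups at PT. Its log2 difference at M2 was 0.24 (SE 0.26) against all PT samples and 1.20 (SE 0.28) among G2 mice alone, and at M3 it was -0.47 (SE 0.27) and 0.52 (SE 0.27). In sham C57Bl/6 mice miR-144-5p went from a median of 8.03 at PT to 6.93 at D2 and 6.31 at D5 (from 5.40 to 7.67, n = 16). The log2 differences were -1.13 (SE 0.28) and -1.53 (SE 0.29), and 16 of 16 mice at D5 lay below their own PT sample, with a mean change of -1.83 ± 0.71 (SD). The miR-144-5p level was again low at M6, by a log2 difference of -1.39 (SE 0.29), and the miR-144-3p value there was -0.27 (SE 0.25). At D2 and D5 the values of miR-144-3p in sham C57Bl/6 mice were -0.61 (SE 0.25) and -0.48 (SE 0.25). Against their own PT sample 10 of 16 mice were lower at D2, with a mean change of -0.70 ± 1.09 (SD). At D5 13 of 16 were lower, with a mean change of -0.78 ± 0.98 (SD). The miR-486a-5p level in sham C3H mice was 14.50 log2 CPM at D2 (median, n = 16) against 15.24 at PT, a log2 difference of -0.79 (SE 0.19), with 13 of 16 mice below their own PT sample. In sham C57Bl/6 mice its log2 difference was 0.10 (SE 0.18) at D2 and -0.52 (SE 0.18) at D5.

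**Figure D3:**
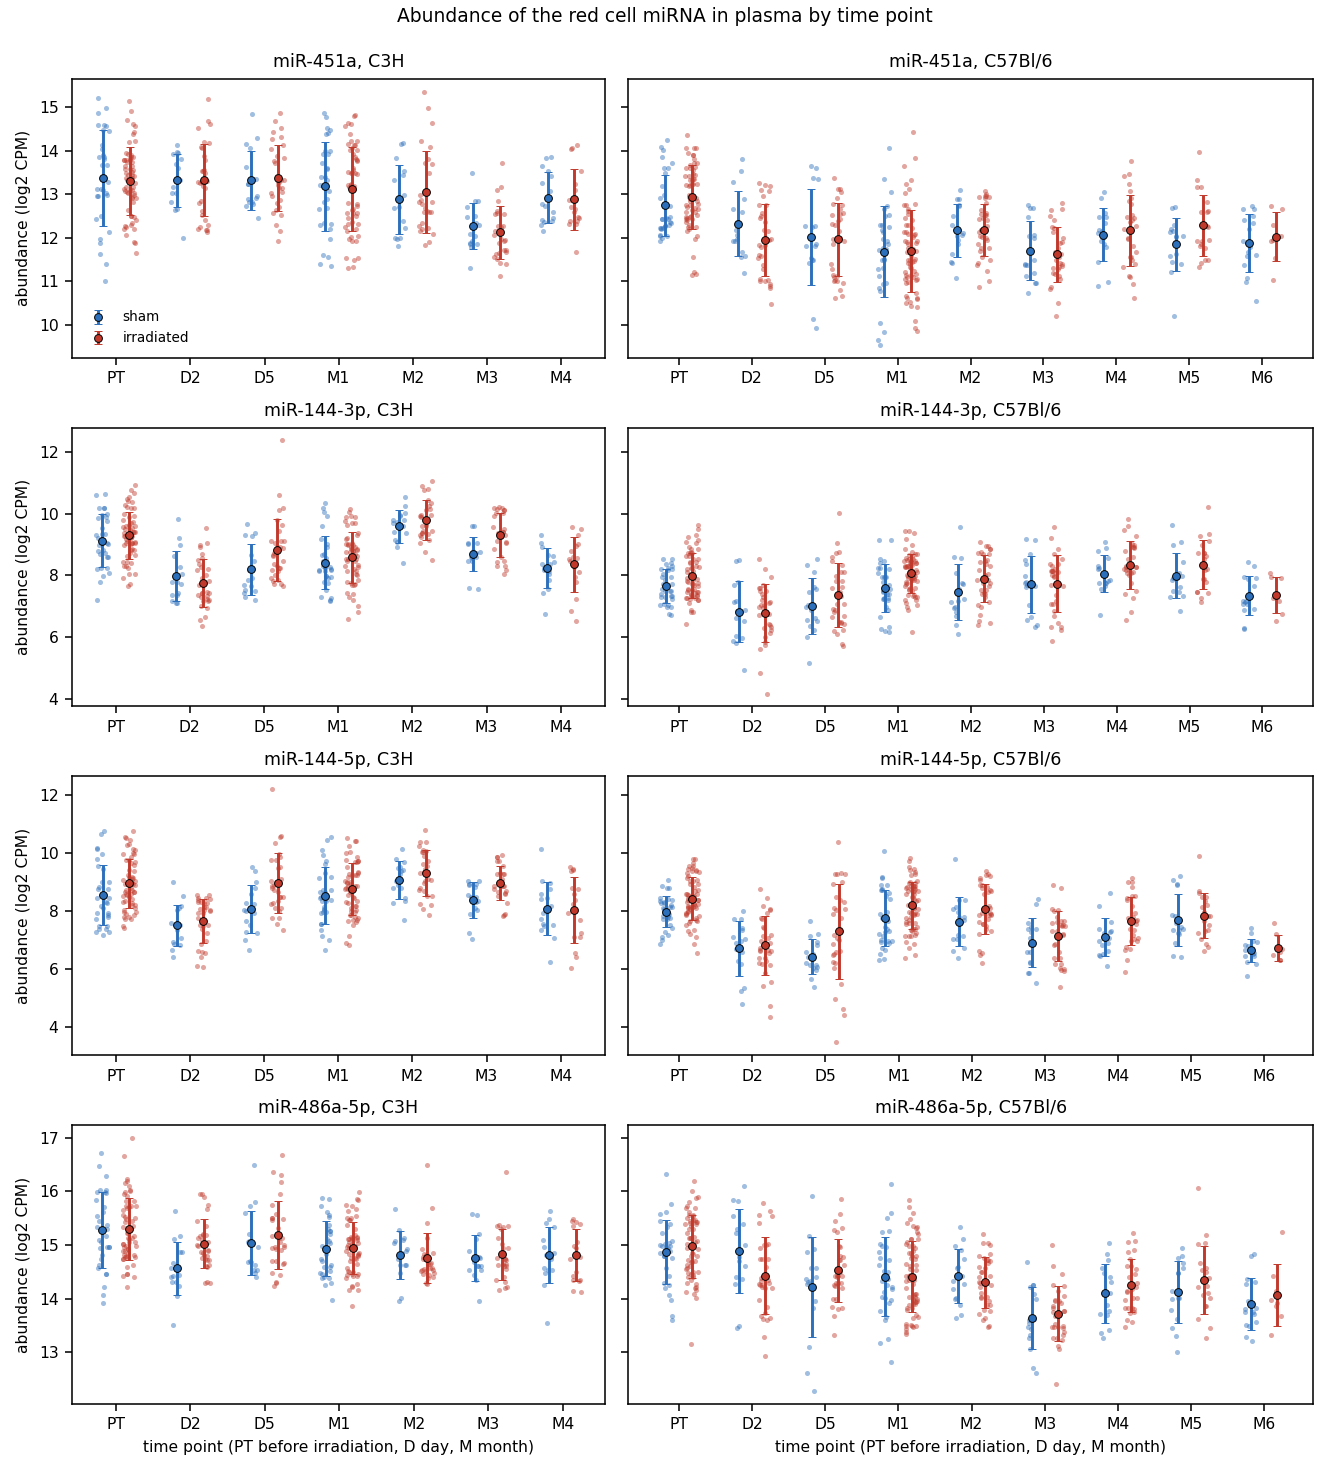
Abundance in log2 CPM of miR-451a, miR-144-3p, miR-144-5p and miR-486a-5p (rows) by time point in C3H (left) and C57Bl/6 mice (right), each small point 1 sample, large points the mean and bars the SD of sham (blue) and irradiated mice (red). Sham and irradiated means follow like courses over time, and the widest fitted gap is that of miR-144-5p at D5 in C57Bl/6 mice, where the sham mice lie between 5.40 and 7.67 and the irradiated mice between 3.48 and 10.40.

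Irradiated and sham mice were then compared at each time point. At PT, before any treatment, 0 of the 5 rows and 0% of all 483 miRNA were called in either strain by edgeR. At an unadjusted p under 0.05 there were 0 of the 5 rows in C3H mice and 2 in C57Bl/6 mice, both arms of miR-144. The C57Bl/6 mice that were to be irradiated had more miR-144-5p than the sham mice already at PT, by 0.54 on the log2 scale (95% interval from 0.16 to 0.91, adjusted p = 0.813 by edgeR), and more miR-144-3p, by 0.44 (95% interval from 0.09 to 0.79, adjusted p = 0.813).

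In C3H mice at D5, 2 of the 5 rows were called, both arms of miR-144, against 3.11% of all miRNA. For miR-144-5p sham mice ranged from 6.66 to 9.53 log2 CPM (median 8.03, n = 16) and irradiated mice from 7.37 to 12.22 (median 8.83, n = 32). The log2 fold change was 1.14 (SE 0.28, edgeR adjusted p = 0.00411). For miR-144-3p sham mice ranged from 7.20 to 9.68 (median 7.88) and irradiated mice from 7.64 to 12.38 (median 8.68), with a log2 fold change of 0.90 (SE 0.25, edgeR adjusted p = 0.0190). The groups overlapped in both cases. Both maxima came from the library of 1 irradiated G4 male. Without it, an alternative chosen after seeing the data, the log2 fold change was 0.84 (adjusted p = 0.0710 by edgeR) for miR-144-5p and 0.52 (adjusted p = 0.394) for miR-144-3p, and no member was called. Both calls were also lost relative to all reads of the sample without TMM factors, at 0.90 (adjusted p = 0.0516) and 0.68 (adjusted p = 0.154).

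At D5 in C57Bl/6 mice, 1 of the 5 rows was called, miR-144-5p, against 14.1% of all miRNA. Sham mice ranged from 5.40 to 7.67 log2 CPM (median 6.31, n = 16) and irradiated mice from 3.48 to 10.40 (median 7.30, n = 32). The log2 fold change was 1.52 (SE 0.29, edgeR adjusted p = 7.66e-06), and 1.32 (adjusted p = 0.000152) without the highest irradiated library. Sham and irradiated mice both lay mostly below PT, in 16 of 16 and 30 of 32 mice, with mean changes from their own PT sample of -1.83 ± 0.71 and -1.44 ± 1.35 (SD). For miR-144-3p the log2 fold change was 0.51 (95% interval from 0.02 to 1.01, adjusted p = 0.164 by edgeR).

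The C57Bl/6 difference at D5 was unequal between the label groups. In G1, sham mice ranged from 5.40 to 6.59 log2 CPM of miR-144-5p (median 6.10, n = 8) and irradiated mice from 3.48 to 7.40 (median 6.37, n = 16), so that the irradiated mice spanned the sham mice on both sides. In G3, sham mice ranged from 6.09 to 7.67 (median 6.89, n = 8) and irradiated mice from 6.53 to 10.40 (median 8.44, n = 16). Fitted within G1 alone the log2 fold change was 0.39 (adjusted p = 0.575 by edgeR) and within G3 alone 1.80 (adjusted p = 0.000107). The difference between the label groups was called for miR-144-5p, at 1.51 (SE 0.44, edgeR adjusted p = 0.00723), as it was for 16.4% of all miRNA, and for 0 of the other 4 rows. Without the G3 females at D5, also chosen after seeing the data, the log2 fold change of miR-144-5p was 0.87 (adjusted p = 0.109), and no member was called. In C3H mice 0 of the 5 rows and 0% of all miRNA were called in the same test of G4 against G2, with 0 of the 5 at an unadjusted p under 0.05. There the value of miR-144-5p was 1.06 (adjusted p = 0.0541) within G2 and 1.13 (adjusted p = 0.231) within G4.

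Changes from each mouse's own PT sample were described but not tested. In a fit with a separate level for each mouse, taken from all its samples, no member was called at D5. How many of all miRNA were called in that fit was not counted, so the loss cannot be set against a background. That fit also differs from the main one in method. Limma-voom without a block called 1 of 30 member values after irradiation in C3H and 1 of 40 in C57Bl/6 mice. With the mouse as a fixed replicate block in limma-voom, the log2 fold change of miR-144-5p was 0.75 (SE 0.30, adjusted p = 0.445) in C3H and 0.57 (SE 0.37, adjusted p = 0.459) in C57Bl/6 mice, and that of miR-144-3p 0.64 (adjusted p = 0.445) and -0.01 (adjusted p = 0.982). With the mouse as a random block, miR-144-5p was called in both, at 0.95 (adjusted p = 0.0114) and 0.96 (adjusted p = 0.0402), and miR-144-3p was not called in C3H mice, at 0.68 (adjusted p = 0.0744).

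**Figure D4:**
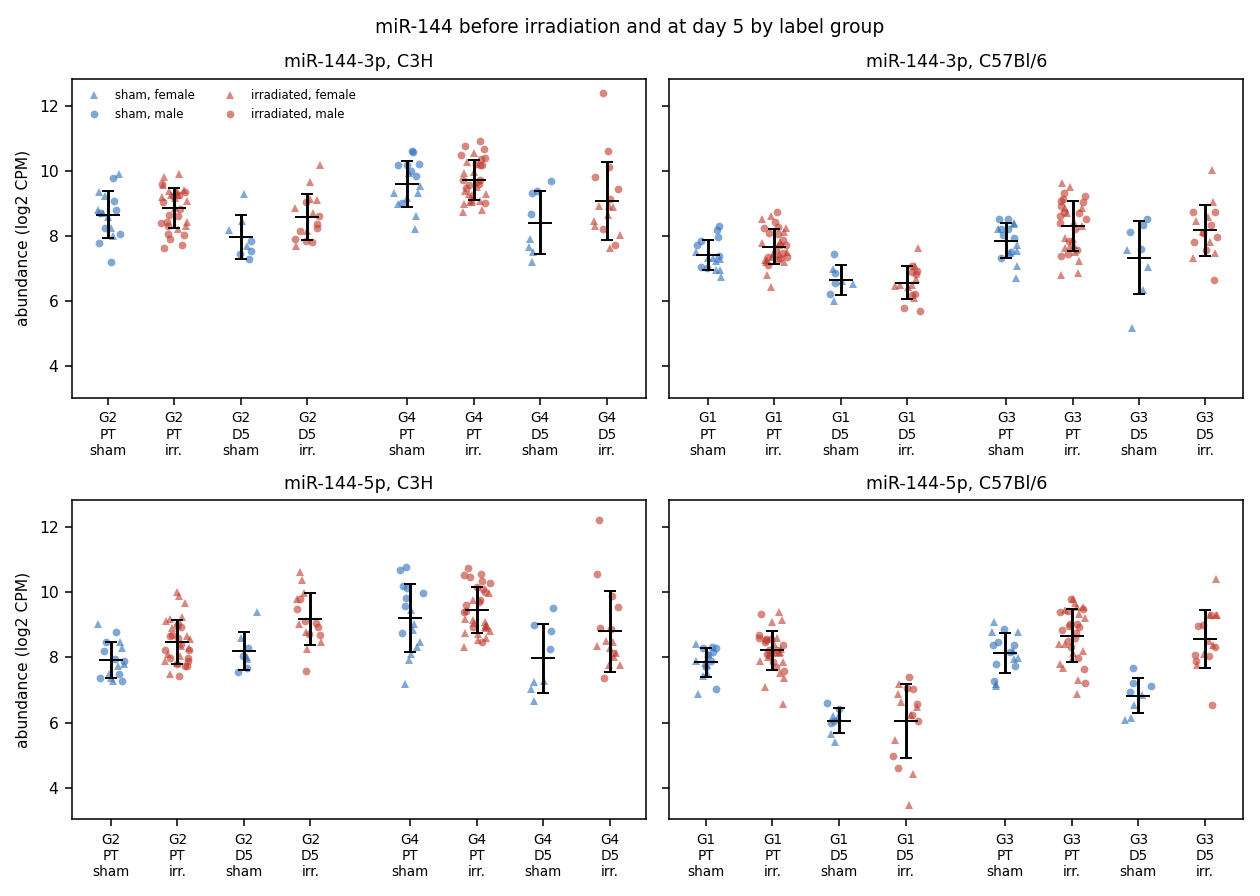
Abundance in log2 CPM of miR-144-3p (top) and miR-144-5p (bottom) before irradiation (PT) and at day 5 (D5) in sham (blue) and irradiated (red) C3H (left) and C57Bl/6 mice (right) by label group, with triangles for females, circles for males, and the mean and SD in black. In G1 the medians of sham and irradiated mice are close at D5 (6.10 and 6.37 for miR-144-5p), while in G3 they lie at 6.89 and 8.44, and 1 irradiated G4 male stands at 12.22.

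The other members did not pass the test at any time point. For miR-451a the log2 fold changes in C3H mice were between -0.10 and 0.30 over 6 time points after irradiation, with 95% intervals inside -0.60 to 0.80, and in C57Bl/6 mice between -0.35 and 0.51 over 8 time points, with intervals inside -0.82 to 1.04. The smallest adjusted p was 0.768 and 0.362 by edgeR. At D5 the medians of sham and irradiated mice were 13.09 and 13.28 log2 CPM in C3H and 11.84 and 12.07 in C57Bl/6 mice. The end farthest from 0 among these intervals was 1.04, at M5 in C57Bl/6 mice.

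The miR-486a-5p values nearest to the threshold had opposite directions in the strains at D2. In C3H mice sham samples ranged from 13.51 to 15.63 log2 CPM (median 14.50, n = 16) and irradiated samples from 14.29 to 15.95 (median 14.94, n = 32), a log2 difference of 0.45 (95% interval from 0.09 to 0.81, adjusted p = 0.153 by edgeR). The sham C57Bl/6 samples ranged from 13.45 to 16.10 (median 14.89, n = 16) and irradiated samples from 12.93 to 15.78 (median 14.31, n = 32), a log2 difference of -0.48 (95% interval from -0.83 to -0.13, adjusted p = 0.0709 by edgeR). At D5 the C57Bl/6 value was 0.19 (95% interval from -0.17 to 0.54), and the difference between the D5 and D2 values was called in C57Bl/6 mice for both miR-486-5p rows and for miR-144-5p, 3 of the 5 rows against 10.2% of all miRNA. It was 0.76 (SE 0.22, adjusted p = 0.0107) for miR-486a-5p and 0.94 (SE 0.31, adjusted p = 0.0276) for miR-144-5p by edgeR. These values come from a fit with a mean for each label group and sex, so they do not equal the gaps between the D2 and D5 values given here. In C3H mice 0 of the 5 rows were called in that test, against 0.409%, with 2 at an unadjusted p under 0.05.

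Over all time points after irradiation 2 of 30 member values were called in C3H and 1 of 40 in C57Bl/6 mice. At D2 0 of the 5 rows were called in C3H mice against 4.97% of all miRNA, and in C57Bl/6 mice 0 against 6.63%. The paper reports deaths of irradiated mice from late radiation injury, so later irradiated groups hold only mice that lived to be bled. Irradiated C3H mice numbered 28 at M2 and 17 at M4, and irradiated C57Bl/6 mice 36 at M2 and 8 at M6. Sham mice numbered 16 in each of these groups. In the later C3H samples 0 of the 5 rows were called at M1 (3.31% of all miRNA), M2 (0.621%), M3 (2.07%) and M4 (0.414%). In the later C57Bl/6 samples 0 were called at M1 (3.73%), M2 (3.31%), M3 (1.66%), M4 (4.76%), M5 (3.52%) and M6 (0.414%). The sign of miR-144-5p was nonetheless positive at all 6 later times in C3H and all 8 in C57Bl/6. Those times share mice and follow a PT difference of the same sign, 0.25 (SE 0.19) in C3H and 0.54 (SE 0.19) in C57Bl/6. The largest later values of the arms of miR-144 were 0.67 (95% interval from 0.17 to 1.18, adjusted p = 0.182) for miR-144-3p at M3 in C3H mice and, for miR-144-5p, 0.64 (95% interval from 0.10 to 1.19, adjusted p = 0.176) at M4 in C57Bl/6 and 0.59 (95% interval from 0.04 to 1.14, adjusted p = 0.287) at M3 in C3H mice by edgeR.

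**Figure D5:**
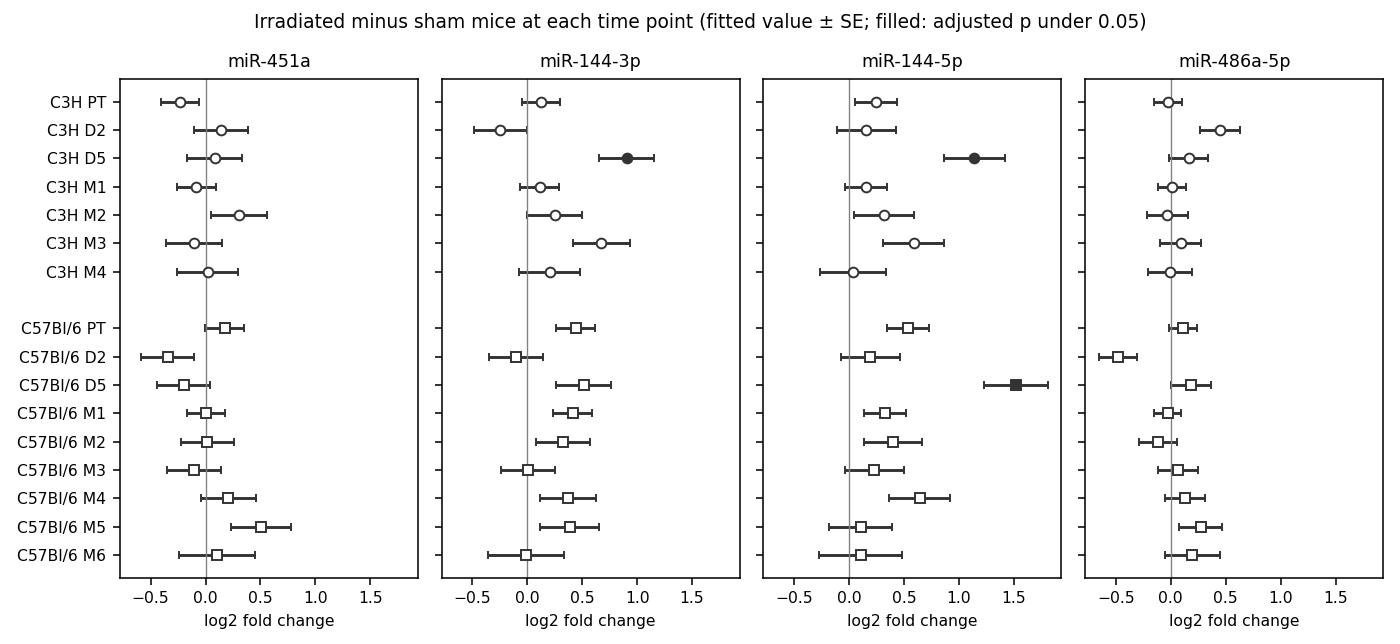
Fitted log2 fold change of irradiated over sham mice (horizontal axis, with the standard error as bars) for miR-451a, miR-144-3p, miR-144-5p and miR-486a-5p at each time point in C3H (circles) and C57Bl/6 mice (squares), filled where the adjusted p was under 0.05. Filled symbols appear at D5 only, at 0.90 and 1.14 for the arms of miR-144 in C3H mice and at 1.52 for miR-144-5p in C57Bl/6 mice.

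The irradiation effect was not called as different between strains for any member. In the F test over the 6 shared time points, 0 of the 5 rows were called by edgeR, against 4.35% of all miRNA, and 2 of the 5, the miR-486-5p rows, had an unadjusted p under 0.05. The adjusted p was 0.342 for miR-486a-5p, 0.805 for miR-144-3p, 0.937 for miR-144-5p and 0.965 for miR-451a. Limma-voom and the limma fits with either block called 0 as well. The difference between sexes in the D5 effect was called for 0 of the 5 rows in C57Bl/6 mice, against 5.73% of all miRNA, and for 0 in C3H mice, against 0%. At an unadjusted p under 0.05 there were 3 and 0. The C57Bl/6 values (female minus male) were 1.11 (95% interval from 0.32 to 1.91) for miR-144-3p and 0.74 (95% interval from 0.14 to 1.33) for miR-486a-5p.

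Other miRNA that red cells carry were followed as a list of 13, of which 12 had enough reads to be tested and miR-451b had none. At D5 in C3H mice 0 of 12 were called, with a median log2 fold change of 0.20 over the list, and in C57Bl/6 mice 2 of 12 were called, both higher in irradiated mice, with a median of 0.18. Over all miRNA tested 3.11% and 14.1% were called. These were miR-185-5p, at 0.55 (SE 0.12, edgeR adjusted p = 0.000162), and miR-93-5p, at 0.46 (SE 0.15, adjusted p = 0.0234). The only other call of the list after irradiation was that of miR-96-5p at M2 in C57Bl/6 mice, at -1.24 (SE 0.38, adjusted p = 0.0353). Before irradiation 9 of 12 were called between strains (65.8% of all miRNA), 7 of them lower in C57Bl/6 mice, among them miR-486a-3p at -0.98 (SE 0.08) and miR-486b-3p at -1.13 (SE 0.09). Between label groups 10 of 12 were called in C3H mice (70.2% of all miRNA), in both directions, with miR-92a-3p at -1.12 (SE 0.08) and miR-185-5p at 0.89 (SE 0.06), and 10 of 12 in C57Bl/6 mice (48.3%). Over time in sham mice 11 of 12 were called in C3H (46%) and 10 of 12 in C57Bl/6 mice (62.9%).

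Markers of other sources of plasma miRNA were also compared at D5, where the share of all miRNA called was 3.11% for C3H and 14.1% for C57Bl/6 mice. Of 5 leukocyte miRNA, 3 were lower in irradiated C3H mice and 4 in irradiated C57Bl/6 mice, and their summed level ranged from 11.93 to 13.44 log2 CPM in irradiated and from 13.35 to 14.54 in sham C3H mice, and from 12.19 to 13.38 against 13.16 to 14.52 in C57Bl/6 mice. None of the 5 was at 0 in all samples of a group. Among C3H mice no platelet, endothelial or liver miRNA was called. Among C57Bl/6 mice 2 of 3 platelet and endothelial miRNA and 2 of 2 liver miRNA were, each time 1 in each direction. Of 3 muscle miRNA 0 were called in either strain, and their summed level spanned 6.99 to 15.26 log2 CPM in irradiated and 9.12 to 14.78 in sham C3H mice. The part of these shifts in the miR-144 values was not tested.

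The ratio of miR-451a to miR-23a-3p, a miRNA that red cells hold little of and that serves as its reference in hemolysis checks, is given as the log2 of the ratio of counts which needs no normalization. Its median over all samples was -0.33, from -4.59 to 3.50. At PT its mean was 1.74 ± 0.64 (SD, n = 48) in G2, -0.20 ± 0.81 in G4, 0.20 ± 0.78 in G1 and 0.01 ± 0.84 in G3, so the label groups of C3H mice differed by more than the strains. The reference miR-23a-3p was itself called by edgeR at PT. It was higher in G4 than in G2 by a log2 difference of 0.72, and higher in C57Bl/6 than in C3H mice by 0.23. It was also called over time in sham C57Bl/6 mice, so the ratio holds shifts of the reference as well as of miR-451a. By time the ratio was lowest at M3, at a mean of -0.33 ± 0.68 (SD, n = 16) in sham and -0.65 ± 0.65 (SD, n = 27) in irradiated C3H mice. In C57Bl/6 it was -1.35 ± 0.72 in 16 sham and -1.52 ± 0.60 in 31 irradiated mice. Irradiated and sham mice differed by less than 1 SD at every time point.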

How the data were processed

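Plasma miRNA was measured in 899 samples that carry 196 mouse numbers. The authors prepared small RNA libraries with a QIAseq miRNA kit, sequenced them, mapped them to mm10 with an online small RNA application, rejected runs with few reads, and deposited the result as whole-number counts, 1 row for every mature miRNA and 1 column for every plasma sample. Library totals ranged from 206490 to 11814515 (median 1475030), so the precision of the scarcer arms of miR-144 differs between libraries.

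Counts were analyzed with edgeR 4.0.16 in R 4.3.3, with TMM normalization and the default filter on low counts, which kept 483 miRNA over all groups and 319 in the samples before irradiation. A quasi-likelihood model with 1 mean for each of 32 groups of strain, treatment and time (867 residual degrees of freedom) gave the comparisons with Benjamini-Hochberg adjustment. Strain, label group and sex were compared in the PT samples. A further edgeR fit gave the differences between label groups, sexes and days in the irradiation effect at D2 and D5. It took the samples from PT to M1, kept 489 miRNA and had a mean for each combination of group, label group and sex. Log2 CPM used a prior count of 2. Shares and ratios used raw counts. TMM factors ranged from 0.372 to 1.59. The mouse number in the labels links samples of 1 mouse, so the pairing is by animal. Within-mouse correlation was 0.121 for miR-451a, 0.199 for miR-144-3p, 0.128 for miR-144-5p and 0.206 for miR-486a-5p, and fits with the mouse as a random or fixed replicate block (limma 3.58.1) were run. Alternatives were limma-voom, DESeq2 1.42.0, other scalings and filters, and subsets by label group and sex. The fits were tested on simulated data.

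The named miRNA are the 5 members, a red cell list, miR-23a-3p and the 5 miRNA with the most similar residuals for miR-451a and miR-486a-5p. The members, lists and tests were chosen with earlier results of these data known. The mice behind a number are separate animals, but the 899 samples are not independent, since most mice were bled several times. Sequences and positions are from RefSeq annotation of GRCm38.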

Additional observations from a re-analysis of the deposited data

Results flagged for a closer look

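Differences between effects that passed the test of the difference itself are listed here. For miR-144-5p the irradiation effect at D5 in C57Bl/6 mice was larger in label group G3 than in G1, by 1.51 on the log2 scale. From D2 to D5 the irradiation effect in C57Bl/6 mice differed by 0.94 for miR-144-5p, by 0.76 for miR-486a-5p and by 0.75 for miR-486b-5p, the last of which is a repeat of the same measurement. For miR-451a the difference between females and males before irradiation differed between the strains by -1.15 (C57Bl/6 minus C3H). What distinguishes the label groups is not given in the labels.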

How the results depend on the processing

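In C3H mice 2 member values were called after irradiation. The count was 0 relative to all reads of the sample, 4 among miRNA with a mean of at least 100 CPM, 1 with limma-voom, 1 with quantile normalization, 4 with only the 2 groups compared, 0 within G2 and 0 within G4 (each fitted up to M1, with 15 values), 0 in females and 0 in males. In alternatives chosen after seeing the data it was 1 without the females or the males of G2 or of G4 at D5, and 0 without the library highest in miR-144-5p. In C57Bl/6 mice 1 value was called, and the count was 2 with quantile normalization, 3 with a mean for each label group and sex, 0 within G1 (15 values), 4 in females, 0 in males, 0 without the G3 females at D5 and 2 without the G3 males. The share of all miRNA called was not counted in these alternatives or in those given next. The counts therefore cannot be set against a background, nor those of females against those of males. The subsets hold fewer samples, and the cause of these shifts was not tested.

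With the mouse as a random replicate block 1 value was called in C3H mice, and with the mouse as a fixed replicate block, which pairs each sample with those of its own mouse, 0 in C3H and 0 in C57Bl/6 mice. The replicate block changed no count of calls for time in sham mice, where 10 of 10 were called. With quantile normalization 9 of 10 were called over time, and the calls between label groups went from 9 to 6 of 10.

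Before irradiation the members called between strains went from 5 to 3 with quantile normalization, those called between sexes from 3 to 7 relative to all reads, and the correlations passing the test from 8 to 5 in G1 and G2 alone. Relative to all reads, the difference between females and males in C57Bl/6 mice was reversed to -0.19 for miR-486a-5p and -0.19 for miR-486b-5p from 0.02. The correlation of miR-451a with miR-144-3p in C3H mice was reversed to 0.557 in G2. Of 1674 single values compared, 1615 kept their direction where called and their side of the threshold, 38 were no longer called, 18 became called and 3 were reversed. A value called in neither fit counts as kept whatever its sign. The sign differed from that of the main fit in 181 of 1480 member values that have a sign. DESeq2 was not run for the tests over several time points.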
